A study of Homo sapiens with 7 samples.

Results

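The H3K9Ac intervals of HCT116 cells, a human colorectal carcinoma cell line, were followed from the starts of genes into gene bodies and between genes. The list holds 34164 intervals, out of 240889 in the lists of 6 marks, and every one of them was used. An interval was placed at a gene when its nearest base lay within 1 kb of the transcription start site (TSS) of the gene's canonical transcript in GENCODE 44 on hg19, and was called distal otherwise. Chromatin came from cultures at about 200000 cells per well, for which the labels name no treatment, cross-linked and sheared for 6 min with PIXUL, a sonicator that treats 96-well plates, in 100 µl. The H3K9Ac library was made from 1 well, and the other marks (H3K4m1, H3K4m3, H3K36m3, H3K27m3 and CTCF) have 1 library each too. There are no replicates, no treated group and no test between conditions, and the depth of the library is unknown from the list.

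Acetylation of lysine 9 of histone H3 is placed by KAT2A and KAT2B, the acetyltransferases of the SAGA and ATAC complexes, and is removed by histone deacetylases and sirtuins. Proteins with YEATS domains or bromodomains bind it. It is known as a mark of active promoters, where it accompanies H3K4m3, and it also occurs at active enhancers, which carry H3K4m1.

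Sequences from 6 places show what the intervals lie on. The first 3 are the 250 bases that end just before a TSS, read in the direction of the gene, with each CpG in capitals. EGR1, a serum-induced transcription factor, and ANP32B, a histone chaperone with the highest H3K9Ac fold enrichment at a protein-coding TSS, lie in intervals, whereas the olfactory receptor gene OR10H2 has none at its TSS.
EGR1 promoter (chr5:137800918-137801167, plus strand): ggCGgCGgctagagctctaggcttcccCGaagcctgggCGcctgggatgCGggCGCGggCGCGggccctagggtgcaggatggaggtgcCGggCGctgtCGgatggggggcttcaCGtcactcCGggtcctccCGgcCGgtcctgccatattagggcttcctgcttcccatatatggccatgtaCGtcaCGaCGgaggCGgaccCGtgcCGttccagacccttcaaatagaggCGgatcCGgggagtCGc
ANP32B promoter (chr9:100745373-100745622, plus strand): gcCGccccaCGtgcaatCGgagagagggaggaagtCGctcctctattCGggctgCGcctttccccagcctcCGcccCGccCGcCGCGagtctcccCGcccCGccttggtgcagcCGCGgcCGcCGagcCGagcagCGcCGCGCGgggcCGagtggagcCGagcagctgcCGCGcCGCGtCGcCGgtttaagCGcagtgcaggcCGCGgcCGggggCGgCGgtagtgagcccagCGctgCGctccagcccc
OR10H2 promoter (chr19:15838584-15838833, plus strand): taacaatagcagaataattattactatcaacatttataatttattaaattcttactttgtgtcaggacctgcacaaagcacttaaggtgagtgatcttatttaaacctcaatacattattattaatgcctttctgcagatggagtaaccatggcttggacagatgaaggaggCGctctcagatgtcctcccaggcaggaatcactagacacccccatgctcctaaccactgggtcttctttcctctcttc
The stretches hold 25, 38 and 1 CpG, with a GC content of 68.4%, 77.2% and 39.6%. The next 3 are the central 300 bases of distal intervals on the plus strand of hg19. The interval in TTC34 has the highest fold enrichment of the distal intervals, and its CpGs are in capitals. The interval in PCDH7 is the widest distal one, and the one in VTI1A has the highest fold enrichment among distal intervals that overlap H3K4m1, do not overlap H3K4m3 and hold an AP-1 site (TGANTCA) in the central window, a choice made after the values were seen. In these 2 windows the AP-1 site is in capitals.
TTC34 distal interval (chr1:2573942-2574241): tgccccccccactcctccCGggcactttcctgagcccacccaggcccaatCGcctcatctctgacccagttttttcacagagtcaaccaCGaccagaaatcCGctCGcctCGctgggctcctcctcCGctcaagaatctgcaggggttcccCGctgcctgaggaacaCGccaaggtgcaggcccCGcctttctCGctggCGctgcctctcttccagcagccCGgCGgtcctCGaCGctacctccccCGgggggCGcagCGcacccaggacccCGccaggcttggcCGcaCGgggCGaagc
PCDH7 distal interval (chr4:31041890-31042189): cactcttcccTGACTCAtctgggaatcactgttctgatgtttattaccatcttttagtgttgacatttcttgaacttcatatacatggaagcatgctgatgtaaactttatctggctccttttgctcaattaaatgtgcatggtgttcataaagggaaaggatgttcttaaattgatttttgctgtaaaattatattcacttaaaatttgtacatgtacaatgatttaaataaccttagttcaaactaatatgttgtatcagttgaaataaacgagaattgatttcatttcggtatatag
VTI1A distal interval (chr10:114288321-114288620): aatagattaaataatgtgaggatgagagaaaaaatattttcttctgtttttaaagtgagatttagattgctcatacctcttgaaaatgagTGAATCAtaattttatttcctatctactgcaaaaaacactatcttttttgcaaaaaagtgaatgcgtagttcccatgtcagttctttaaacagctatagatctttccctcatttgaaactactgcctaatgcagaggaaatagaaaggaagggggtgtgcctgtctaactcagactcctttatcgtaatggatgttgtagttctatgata
The TTC34 window has 23 CpGs and a GC content of 68.3%. The windows in PCDH7 and VTI1A have 2 CpGs each and a GC content of 31.0% and 33.0%. The EGR1, ANP32B and TTC34 examples thus lay on CpG-rich sequence, and the PCDH7 and VTI1A examples on AT-rich sequence. The VTI1A interval was both high for a distal one (fold enrichment 11.6) and wide (27861 bp). These picked examples do not stand for all high or wide intervals. Among the 15 widest intervals, the GC content of the central 300 bases ranged from 30.3% to 59.7%. Of the highest distal intervals, the one in MADCAM1 held 42 CpGs there, and one outside genes on chromosome 17 held 6.

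Intervals at protein-coding starts were strong and wide, and distal ones were weak and narrow. Of the 34164 intervals, 13968 (40.9%, 95% Wilson interval 40.4 to 41.4%) lay within 1 kb of the TSS of any annotated gene and 20196 (59.1%) were distal. The intervals at TSSs comprised 11271 at protein-coding genes, 1869 at long non-coding RNA (lncRNA) genes only, and 828 at other genes only, such as pseudogenes and small RNAs. Wilson intervals here and below cover counting error only. The fold enrichment, the ratio that the peak caller gave to each interval as a whole, had a median of 12.4 at protein-coding TSSs (middle 50%, 9.25 to 15.4). It was 5.43 at lncRNA TSSs, 3.76 at other TSSs and 3.30 at distal intervals (2.90 to 4.08). The median width followed the same order, at 2878 bp, 2011 bp, 1430.5 bp and 1133 bp. Protein-coding TSS intervals covered 39.4 Mb and distal ones 35.1 Mb, so that the classes divided the covered bases more evenly than the fold enrichment.

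The deposited list reaches below the limits that the study's methods set for this mark, namely q under 1e-10 with more than 5-fold enrichment. Of the protein-coding TSS intervals, 90.0% passed both limits, against 44% of the lncRNA, 20.7% of the other and 7.84% of the distal ones. Among the 12720 intervals past the limits, 79.7% lay at protein-coding TSSs and 12.5% were distal, and the share at any TSS was 87.5% in place of 40.9%. Across bins of fold enrichment, the share at any TSS was 7.36% from 2 to 3, 59.9% from 5 to 10 and 93.3% from 10 to 15. All 90 intervals at 25 or above lay at a TSS. Few intervals stood near the 1 kb limit compared with those that hold a TSS. TSSs lay inside 12825 intervals, while 469 intervals stopped over 500 and up to 1000 bp from a TSS and 503 stopped over 1000 and up to 1500 bp from one, with median fold enrichments of 3.38 and 3.37.

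**Figure D1:**
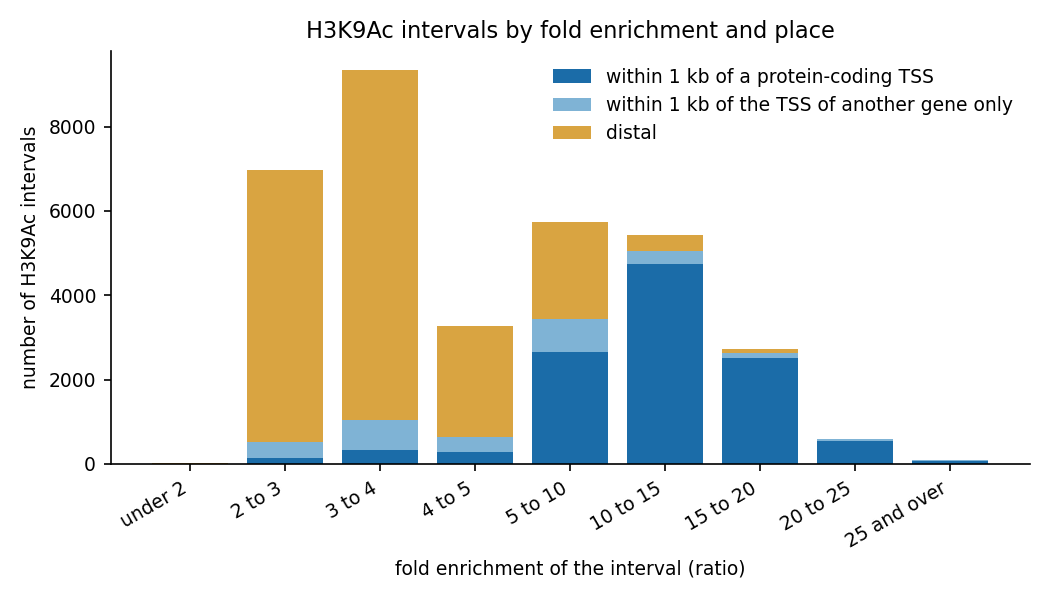
Number of H3K9Ac intervals (vertical axis) in bins of fold enrichment (horizontal axis), stacked by place: within 1 kb of a protein-coding TSS, of the TSS of another gene only, or distal. Distal intervals make up most of the bins under 5, and protein-coding TSS intervals most of those from 10 upward (4743 of 5421 from 10 to 15).

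Gene classes differed in how often their TSS carried the mark. An interval lay within 1 kb of the TSS of 12969 of 20162 protein-coding genes (64.3%), and an interval past the limits at 11797 (58.5%). The share was 27.2% for 18934 lncRNA genes, 11% for 8497 small RNA genes and 5.58% for 15399 pseudogenes. Non-coding starts beside coding genes were marked more often than those away from them. Of 2820 lncRNA genes that start within 1 kb of a protein-coding TSS, 82.6% were marked, and of 14512 that start over 5 kb from any, 14.1% were (13.6 to 14.7%). For small RNA genes these shares were 82.9% of 216 and 6.04% of 7594, and for pseudogenes 42.0% of 162 and 4.67% of 14532. Marked lncRNA starts away from coding genes had a median fold enrichment of 6.03, against 13.3 beside coding starts. Of 938 head-to-head pairs of protein-coding genes with TSSs at most 1 kb apart, both starts were marked in 906 (96.6%) and neither in 32, and in each of the 906 pairs the starts shared 1 interval. Starts this close are partly in reach of the same interval by the rule itself. In all, 1511 intervals lay at more than 1 protein-coding TSS. Across the 22 autosomes the share of protein-coding genes marked ranged from 50.2% on chromosome 21 to 73.1% on chromosome 22.

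Where H3K9Ac lay at a protein-coding TSS, H3K4m3 lay there too in 95.7% of genes (99.2% for intervals past the limits), H3K4m1 in 91.8% and CTCF in 42.5%. Of the 7193 genes without H3K9Ac at the TSS, 22 (0.306%) had H3K4m3, 6.10% had H3K4m1 and 6.01% had CTCF. H3K27m3, the mark of Polycomb repression, lay at 4.47% of the TSSs with H3K9Ac and at 18.9% of those without (18.0 to 19.8%). Of the 7193 genes, 750 (10.4%) had H3K9Ac at another annotated transcript start.

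Promoter sequence differed between the marked and the other TSSs. In the window from 250 bases before to 50 after the TSS, marked genes had a median of 28 CpGs (middle 50%, 21 to 36) and the other genes 6 (3 to 17). The marked share was 6.31% of 1126 genes with 0 or 1 CpG, 26.7% with 5 to 9, 74.0% with 15 to 19 and 88.0% of 6532 genes with 30 or more. Among marked genes the median fold enrichment also went up along these bins, from 5.07 at 0 or 1 CpG to 14.0 at 30 or more. Short motifs were searched on both strands of the same window. The GC box of SP and KLF factors (GGGCGG) lay in 76.4% of marked and 33.0% of other promoters, and in 60.9% of all. The ETS core (CCGGAAG) lay in 19.7% and 3.81%, and in 14.0% of all, and the YY1 core (AAGATGGCG) in 4.24% and 0.236%, and in 2.81% of all. Of the 567 promoters with the YY1 core, 550 were marked. The TATA box (TATAAA) went the other way, with 4.997% of marked and 18.5% of other promoters, and 9.80% of all. The CCAAT box (CCAAT) lay in 35.9% of both, and in 35.9% of all. The GC box, ETS and YY1 letters hold a CpG, and the CpG content of the promoters was not separated from them here. A match of letters is a description and not a site of binding.

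Ribosomal protein and proteasome genes were marked nearly throughout, and histone genes at a share near that of all protein-coding genes. Of 87 cytoplasmic ribosomal protein genes, 84 were marked, all past the limits, and the others were RPL10L, RPL39L and RPL3L, paralogues of restricted expression. Their median fold enrichment of 13.6 was close to the 12.6 of all marked protein-coding genes, but their median interval width was 5573 bp against 2992 bp, and 14 lay in an interval of at least 10 kb, which held 3.36% of all marked protein-coding genes. RPL7 had the highest fold enrichment of them (25.3) and RPS4X the lowest (8.00). All 78 mitochondrial ribosomal protein genes were marked past the limits, from MRPS36 (7.99) to MRPL12 (28.3), with a median width of 2910 bp. Of 39 proteasome subunit genes, 37 were marked. PSMA7 stood at 26.7, the interferon-induced subunits PSMB10, PSMB9 and PSMB8 at 15.5, 15.03 and 3.73, and the testis subunit PSMA8 and the thymus subunit PSMB11 had no interval at the TSS. Of 64 replication-dependent histone genes, 46 were marked (71.9%, 59.9 to 81.4%), against 64.3% of all protein-coding genes, and their median interval width was 9136 bp. Some neighbours share an interval, and H2AC19, H3C14 and H3C15 lay in the same interval of 16550 bp with a fold enrichment of 19.2. These genes have near-identical copies, to which reads can be assigned ambiguously.

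The genes of H3K9 acetylation itself were all marked, 2 of 2 acetyltransferases, 23 of 23 other SAGA and ATAC subunits, 6 of 6 deacetylases and 7 of 7 readers, against 64.3% of all protein-coding genes. KAT2A lay in an interval of 3309 bp with a fold enrichment of 11.7 and its paralogue KAT2B in one of 2208 bp with 7.05. WDR5, a WD40 subunit of ATAC, was the highest of the subunits (24.7), followed by the scaffold kinase homologue TRRAP (22.7), and MBIP, an ATAC subunit, the lowest (6.73). Of the deacetylases, HDAC2 stood at 18.5, HDAC3 at 16.7, the H3K9 deacetylase SIRT6 at 10.2 and X-linked HDAC8 at 5.43, the 1 gene of these lists under the limits. The reader MLLT3 (6.63) also had H3K27m3 at its TSS.

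All 32 immediate-early genes, which serum and growth factors induce within minutes, were marked past the limits in the HCT116 list, against 58.5% of all protein-coding genes. Their median fold enrichment was 12.9 and their median width 5305 bp. Of them, 8 lay in intervals of at least 10 kb, against the 3.36% of all marked protein-coding genes. The RNA-binding protein gene ZFP36L1 had the widest (21553 bp, 11.6), followed by ZFP36 (16848 bp), IER2 (16796 bp) and the AP-1 subunit gene JUNB (15163 bp). Among the lower ones were EGR2 (7.46) and FOSB (7.94). The study assayed human loci by qPCR, some of them, such as TBX3 and POU5F1, in embryonic stem cells. At 5 of 6 such loci an interval lay at the TSS in HCT116 cells, against 64.3% of all protein-coding genes. RPL32 stood at 16.1, EGR1 at 15.2 (chr5:137798845-137802177, 3333 bp), UBE2B at 13.6, TBX3 at 12.7 and NR4A3 at 10.1. The pluripotency gene POU5F1 had no interval within 1 kb of its TSS.

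All epithelial markers were marked, and markers of other lineages in 0 to 36.4% of each list. Of all protein-coding genes 64.3% were marked, 58.5% past the limits. Of 14 epithelial markers, all 14 were marked past the limits. The adhesion molecule gene EPCAM (18.8) and the splicing regulator gene ESRP1 (18.8) were the highest. The structural genes KRT8 (15179 bp), KRT18 (13659 bp), CLDN4 (13429 bp), KRT19 (12937 bp) and CDH1 (11088 bp) had lower fold enrichments, from 6.74 at CDH1 to 11.4 at KRT19, and the widest intervals. Of 55 keratin genes, 11 were marked, and the simple-epithelial genes KRT8, KRT18 and KRT19 were among the 5 past the limits. Of 12 blood markers, 0 were marked. The counts were 1 of 7 endothelial (ESAM), 1 of 8 hepatocyte (APOA1, 4.24), 3 of 11 fibroblast (COL1A1, TWIST1 and PDGFRA) and 4 of 11 neuronal markers (SLC17A7, GAD1, SYT1 and SYP; 36.4%, 15.2 to 64.6%). PECAM1, an endothelial marker, was not found under that name among the protein-coding genes used.

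Intestinal transcription factor genes were marked at a share near that of all protein-coding genes, and 4 of 11 intestinal markers were marked. Of 23 intestinal transcription factors 16 were marked (69.6%, 49.1 to 84.4%, against 64.3% of all protein-coding genes), led by CDX2 (17.3), SOX9 (16.0) and KLF4 (15.6). CDX1, EHF, FOXA2, GATA4, HNF4G and ISX were among those without an interval. The 4 marked intestinal markers (36.4%, 15.2 to 64.6%) have CDX2, KLF5 and HNF4A among them. The intestinal epithelial genes VIL1, CDH17, LGALS4 and GPA33, were not, and CDH17 had H3K27m3 at its TSS. Of 19 Wnt target genes, 16 were marked. The secreted antagonist gene NOTUM stood at 20.01 and the cyclin gene CCND1 at 15.8. The stem cell receptor gene LGR5 stood at 5.52, in an interval of 771 bp under the limits and together with H3K27m3. LEF1, APCDD1 and TNFRSF19 were unmarked, and all 3 had H3K27m3, against 18.9% of all unmarked protein-coding genes. H3K27m3 also lay at 3 of the 16 marked Wnt target genes (LGR5, NKD1 and NOTUM), against 4.47% of all marked ones.

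Several clustered families had few marked genes. Of 415 olfactory receptor genes, 7 had an interval and 0 had one past the limits, with fold enrichments from 2.74 to 4.45. H3K27m3 lay at the TSS of 156 of the 415, against 18.9% of all protein-coding genes without H3K9Ac. Of 53 clustered protocadherin genes, 3 were marked (PCDHAC1, PCDHAC2 and PCDHGA10). The counts were 10 of 94 keratin-associated protein genes, 0 of 40 beta-defensin genes and 0 of 24 bitter taste receptor genes. HOX and ZNF genes, which are clustered too, were marked at shares nearer the 64.3% of all protein-coding genes. Of 39 HOX genes, 23 (59.0%, 43.4 to 72.9%) were marked, with HOXB9 (25.7) and HOXA11 (20.4) the highest, and HOXA9 and HOXA10 shared an interval of 15355 bp. Of 508 numbered ZNF genes, 361 (71.1%) were marked, with a median width of 2148 bp, under the 2992 bp of all marked protein-coding genes. The list holds only intervals past the caller's cutoff, so a gene without one is not shown to lack acetylation.

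**Figure D2:**
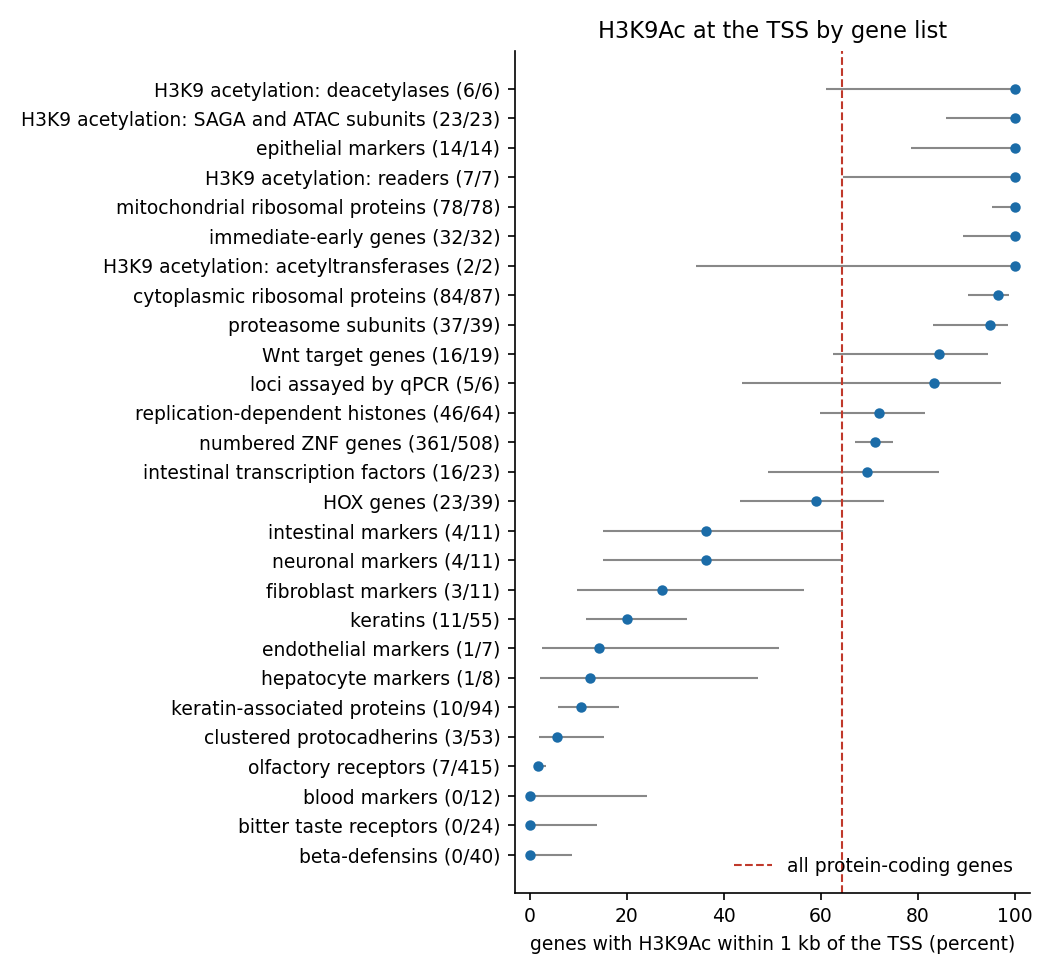
Share of the genes of each list with an H3K9Ac interval within 1 kb of the TSS (points, percent), with 95% Wilson intervals (bars) and the number marked of the number found beside each name. The dashed line is the 64.3% of all protein-coding genes, with ribosomal protein, epithelial and immediate-early genes to its right and olfactory receptors (7 of 415) far to its left.

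The intervals reached farther into genes than upstream of them. This was measured at 5782 protein-coding TSSs that lay inside an interval and had no other gene start within 5 kb. The interval ran a median of 968 bp upstream (middle 50%, 662 to 1460 bp) and 1600 bp downstream (1181 to 2232.75 bp). It ran farther downstream than upstream at 4459 of them (77.1%, 76.0 to 78.2%). The share went up with the strength of the interval, from 65.4% of the 1446 at the lowest fold enrichment (2.51 to 8.94) to 83.7% of the 1446 at the highest (up to 30.2). In the same order the median downstream reach went from 1106.5 to 1842.5 bp. The downstream reach differed little with gene length, with a median of 1553.5 bp for genes of 5 to 10 kb and 1588 bp for those over 100 kb, all lengths being measured from the TSS to the gene end. In genes under 2 kb the interval ran past the gene end at 49 of 85. When all 12520 TSSs inside an interval entered, whatever their neighbours, the share was 68.1%.

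H3K4m3 was more tightly drawn around the same starts. At 5511 of the isolated TSSs, which lay inside intervals of both marks, H3K4m3 ran a median of 621 bp upstream and 1183 bp downstream, against 978 and 1618 bp for H3K9Ac. H3K9Ac ran farther downstream than H3K4m3 at 93.5% of them (92.8 to 94.1%), by a median of 391 bp (middle 50%, 177 to 833 bp), and farther upstream at 93.2%, by 302 bp. Downstream reaches over 5 kb numbered 232 for H3K9Ac and 4 for H3K4m3. Both lists were called separately, at unknown depths, which can set such widths, and the part of depth was not tested.

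Away from the start the mark fell quickly to a low level, which was similar upstream and inside the gene at 10 kb. Of 3925 isolated marked genes of at least 20 kb, H3K9Ac covered the position 1 kb into the gene in 84.2%, 2 kb in 31.9%, 5 kb in 6.73% and 20 kb in 3.82%. At 2, 5 and 10 kb upstream the shares were 11.3%, 5.12% and 5.61%, and at 10 kb into the gene the share was 4.48%. H3K4m3 covered 69.0% at 1 kb, 5.71% at 2 kb and 0.306% at 5 kb into the gene. H3K36m3, the mark of transcribed gene bodies, changed places with H3K9Ac, at 1.15% 1 kb, 22.4% 2 kb and 33.5% 5 kb into the gene. H3K4m1 covered 64.6% of these starts themselves and 9.68% of the positions 5 kb into the gene.

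**Figure D3:**
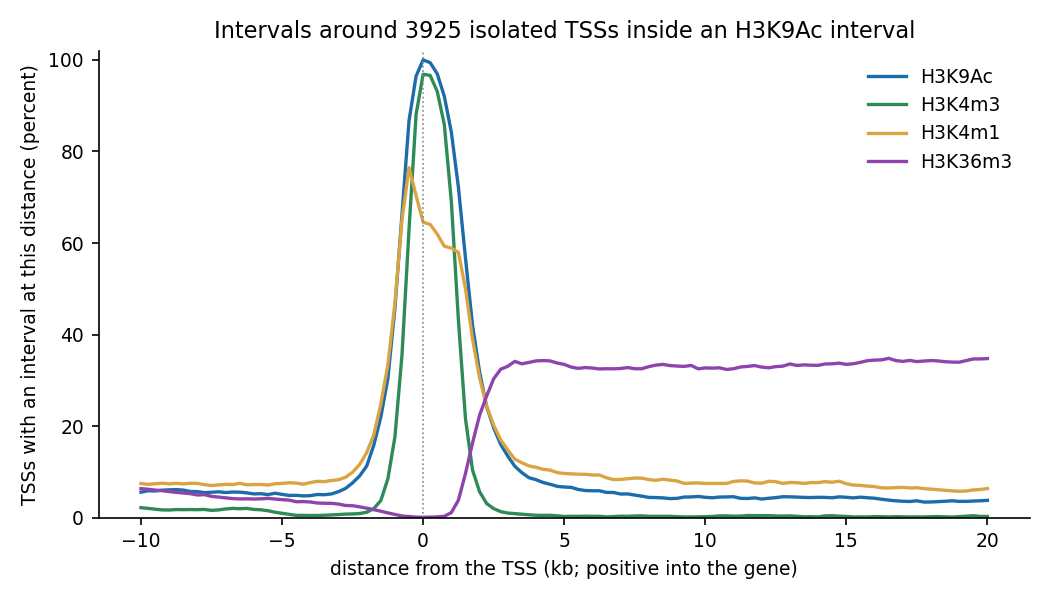
Share of 3925 isolated protein-coding TSSs inside an H3K9Ac interval (percent, vertical axis) at which an interval of each mark covers the position at a given distance from the TSS (kb, horizontal axis, positive into the gene). H3K9Ac falls from 100% at the TSS to 31.9% at 2 kb and 6.73% at 5 kb, where H3K36m3 stands at 33.5%.

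A small share of the body was covered in most genes, although many long genes held an interval far from the start. In 11628 marked genes of at least 5 kb, a median of 6.61% of the length from TSS to gene end lay inside any interval (middle 50%, 2.997 to 14.8%), or 2142 bp. The covered length varied less than the share. From genes of 5 to 10 kb to those over 100 kb, the median share went from 25.1% to 1.97%, while the median covered length went from 1792 to 3415.5 bp. At least 50% of the body was covered in 423 of the 11628 genes (3.64%) and in 7 of 2272 genes over 100 kb. Any interval beyond the first 5 kb of the body was found in 5002 of the 11628 (43.0%), in 49.5% of the genes of at least 20 kb and in 69.2% of those over 100 kb, which also have more sequence there. These counts include intervals under the limits, and those at starts of other genes or transcripts inside the body were not set apart. Of 5355 unmarked genes of at least 5 kb, 1421 (26.5%) had an interval somewhere in the body.

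In 4 genes of at least 10 kb, 95% or more of the body was covered. KLF16, a Krüppel-like repressor gene (chromosome 19, 11181 bp), was covered whole by acetylation, and CPOX, which encodes a heme synthesis enzyme (chromosome 3, 14166 bp), at 96.8%. The other two, given here by identifier, were ENSG00000266086 on chromosome 17 (18209 bp, 100%) and ENSG00000281348 on chromosome 16 (13389 bp, 95.3%). H3K36m3 covered 93.8% of the CPOX body, 84.7% of ENSG00000266086, 68.5% of KLF16 and 15.3% of ENSG00000281348.

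Some single intervals ran from the TSS far into a long gene. The farthest among genes of at least 20 kb was at BCL2L1, an apoptosis inhibitor gene on chromosome 20, where the interval ran 3017 bp upstream and 34377 bp downstream of the TSS (fold enrichment 7.48). It was followed by ITPRID2 (33930 bp downstream), the KIT ligand gene KITLG (29578 bp), ENSG00000285897 (29529 bp) and the ubiquitin ligase gene RNF43 (29468 bp), which share 1 interval, and the membrane linker gene EZR (28193 bp). The glucose transporter gene SLC2A1 (27833 bp), the membrane repair gene MYOF (27280 bp), the chromatin protein gene HMGA2 (23771 bp) and the tight junction gene TJP3 (22606 bp) completed the 10. In 9 of them H3K36m3 covered over 80% of the body, from 83.1% at ENSG00000285897 to 98.8% at BCL2L1, and in TJP3 it covered 20.1%. The share of all marked genes of at least 20 kb covered to this extent is not given here. Of the 10, only MYOF, HMGA2 and TJP3 had no other gene start within 5 kb.

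Distal intervals were mostly intragenic and mostly on H3K4m1. Of the 20196, 14354 (71.1%, 70.4 to 71.7%) overlapped a gene and 11972 (59.3%) a protein-coding gene. The share of hg19 that lies in genes is not given here, so these shares are not set against it. By place, 8034 (39.8%) lay in introns of protein-coding genes, 2484 touched a coding exon, 1020 touched an untranslated exon part without coding sequence, and 5842 (28.9%) lay outside genes. Those that touched a coding exon passed the limits in 18.8%, and intronic ones in 2.80%. Per Mb of gene, protein-coding genes with a marked TSS held 11.9 distal intervals and those without one 4.68. RAD51B, a recombination gene of 910440 bp on chromosome 14, held the most (66), followed by the zinc finger gene ZBTB20 (39), GSE1 (38) and CUX1 (29). RUNX1 held 25 and had no interval at its canonical TSS, but had one at another annotated start.

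H3K4m1 overlapped 85.7% of the distal intervals (85.3 to 86.2%), and 96.2% of those at protein-coding TSSs. H3K4m3 overlapped 14.7% and 96.1%. The distal intervals divided into 14568 with H3K4m1 alone of the pair (72.1%), 2748 with both, 215 with H3K4m3 alone and 2665 with neither. Those with both had a median fold enrichment of 6.07, and 48.5% of them passed the limits. Those with H3K4m1 without H3K4m3 had a median of 3.26, and 1.56% passed. Those with neither had 2.83, and 0 of 2665 passed. CTCF overlapped 29.99% of the distal and 47.8% of the protein-coding TSS intervals, and H3K27m3 2.996% and 5.15%.

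The few distal intervals past the limits differed from the rest in sequence and annotation. Of these 1584, 98.5% overlapped H3K4m1 and 85.7% H3K4m3. Another annotated transcript start lay within 1 kb of 635 (40.1%), against 12.1% of the 18612 under the limits. Their central 300 bases had a median of 12 CpGs and 56.3% held 10 or more. Those under the limits had a median of 4, with 14.2%, and among all 300-base tiles of hg19 the median was 2, with 4.47%. The AP-1 site (TGANTCA, both strands) lay in the central 300 bases of 20.04% of all distal intervals, 9.97% of those past the limits, 4.52% of the protein-coding TSS intervals and 9.31% of all tiles of hg19. Of distal intervals with H3K4m1 21.6% held it, and of those without 10.5%. The TEAD core (GGAATG) lay in 17.0% of the distal windows and 15.5% of tiles, the TCF/LEF core (ATCAAAG) in 4.19% and 5.003%, and the GATA core (AGATAAG) in 3.54% and 4.35%. Of the motifs searched that hold no CpG, AP-1 had the largest excess over the tiles in the distal windows. The VTI1A window printed above was picked for holding an AP-1 site, so it does not illustrate this excess. Among the 15 widest intervals, the printed PCDH7 one alone held an AP-1 site in its central 300 bases.

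The 10 distal intervals with the highest fold enrichment ranged from 22.8 to 24.8. The first was the TTC34 interval (chr1:2572931-2575253), 8476 bp from the nearest start, with 404 bp of coding exon. The second lay in MADCAM1 (24.7) and the third in a stretch that EMILIN2 and LPIN2 both overlap (24.7). The next were in MIB2 (24.4), in ELOVL3 and PITX3 (23.6), outside genes on chromosome 17 (22.9), in PFKFB3 (22.9), TACC2 (22.8) and ZFPM1 (22.8), and outside genes on chromosome 3 (22.8). The last of them has 2 near-identical copies in hg19. H3K4m3 covered from 31.0% to 87.8% of their bases. Another annotated transcript start lay inside 5 of the 10, those in MADCAM1, EMILIN2 and LPIN2, MIB2, PFKFB3 and TACC2.

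The 10 highest fold enrichments of the whole list lay at starts. Of these 10 intervals, 6 had near-identical copies elsewhere in hg19, at 95% identity or more over at least 50% of the interval, where reads can be placed ambiguously. These were the pseudogene WASH8P on chromosome 12 (35.9, 4 copies), SDHAP1 (35.5, 2 copies), WASH2P (33.5, 4 copies), WASH7P with MIR1302-2HG (32.0, 4 copies), SDHAP2 (32.0, 2 copies) and ENSG00000274378 on chromosome 17 (30.2, 1 copy). Among those with 0 such copies were ANP32B (32.2), the shared start of EMC8 and COX4I1 (31.1), for a membrane protein insertase subunit and a respiratory chain subunit, and the mitochondrial cation exchanger gene LETM1 (30.2).

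The widest intervals lay at protein-coding starts in a smaller share than those of 3 to 5 kb, with a lower fold enrichment and more of their bases in H3K36m3. Of the 34164 intervals, 2927 were at least 5 kb wide, 603 at least 10 kb and 104 at least 20 kb. Fold enrichment and width went together over all intervals (Spearman correlation 0.67, over intervals of 1 library), less so within protein-coding TSS intervals (0.35) and distal ones (0.48), and not at the wide end. The median fold enrichment was 11.55 from 3 to 5 kb and 7.76 at 20 kb or more. A protein-coding TSS lay within 1 kb of 62.9% of the former (3607 of 5731) and 40.4% of the latter (42 of 104), a TSS of any gene of 70.6% and 67.3% (57.8 to 75.6%), and H3K4m3 overlapped 75.8% and 61.5% (51.9 to 70.3%). H3K4m1 covered 72.9% of the bases of intervals of 3 to 5 kb and 96.2% of those of at least 20 kb. H3K4m3 covered 45.0% and 10.7%, H3K36m3 10.4% and 43.4%, CTCF 12.7% and 4.78%, and H3K27m3 1.04% and 0.0984%. Counted by interval, CTCF went the other way and overlapped 46.0% of those of 3 to 5 kb and 74.0% of those of at least 20 kb. Their median GC content was 42.6%, against 51.3% from 3 to 5 kb. Of the bases in intervals of at least 10 kb, 7.99% lay within 1 kb of a protein-coding TSS, 57.2% elsewhere in a protein-coding gene and 20.4% outside genes. Over all intervals these shares were 25.2%, 47.1% and 17.7%. The share within 1 kb of a TSS is bounded by the width itself, since a wide interval holds more bases than such a window.

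**Figure D4:**
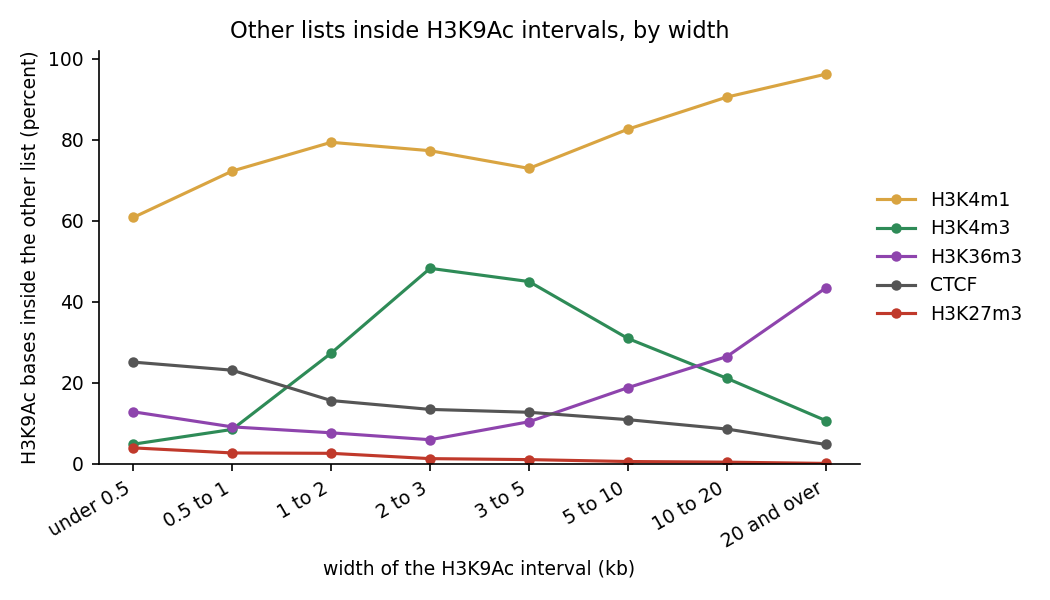
Share of the bases of H3K9Ac intervals that lie inside the intervals of each other list (percent, vertical axis), by width of the H3K9Ac interval (kb, horizontal axis). H3K4m3 peaks at 48.3% from 2 to 3 kb and falls to 10.7% at 20 kb or more, where H3K4m1 stands at 96.2% and H3K36m3 at 43.4%.

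Of the 15 widest intervals, 4 lay in 1 gene, PCDH7, a non-clustered protocadherin gene of 426437 bp on chromosome 4. The widest of all, 79212 bp (chr4:30807097-30886308, fold enrichment 8.73), began 85106 bp into it, and the others measured 72751, 66397 and 56174 bp. Together with smaller ones they covered 338346 bp (79.3%) of the gene body, the most covered bases of any protein-coding gene. The next was RAD51B with 224801 bp (24.7%). The canonical TSS of PCDH7 itself had no interval within 1 kb. An interval of 4752 bp with the highest fold enrichment of the locus (10.2) lay upstream of the TSS (chr4:30715708-30720459), and the first interval inside the gene began 4612 bp after it. H3K4m1 covered 91.8 to 98.1% of the 4 wide intervals, H3K36m3 11.2 to 72.4% and H3K4m3 at most 0.593%. With gaps of up to 5000 bp bridged, 10 intervals joined to a domain of 259336 bp, of which 91.9% was covered. It was again the widest, followed by 134183 bp over SYTL3 and EZR.

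**Figure D5:**
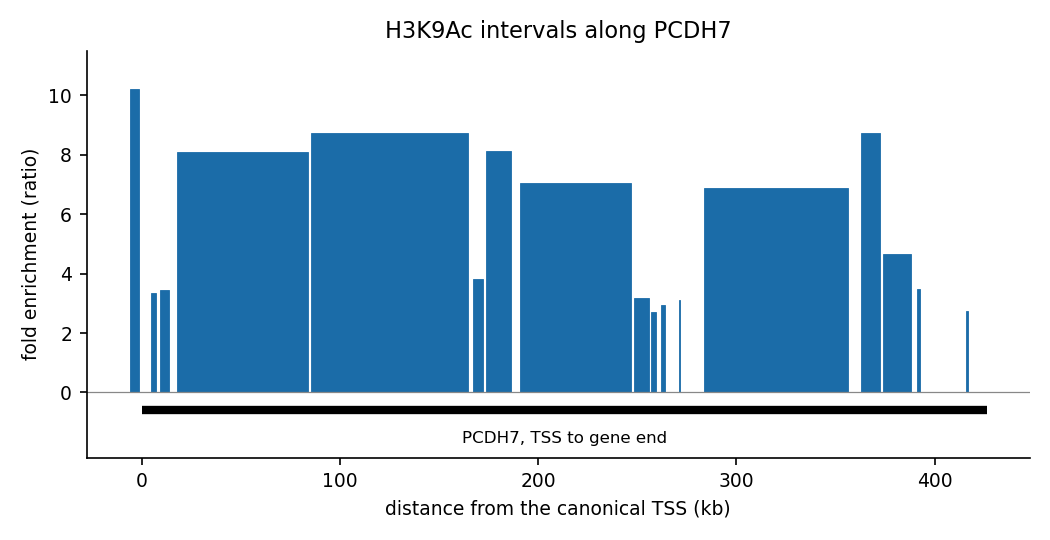
H3K9Ac intervals along PCDH7, by distance from the canonical TSS (kb, horizontal axis) and fold enrichment (ratio, vertical axis), with the gene as the black bar. No interval covers the TSS, and 4 intervals of 56174 to 79212 bp lie in the gene at fold enrichments from 6.89 to 8.73.

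The other 11 lay in different kinds of genes. MIR100HG on chromosome 11 (75747 bp, 7.72), MIR31HG on chromosome 9 (51764 bp, 11.6) and LINC-PINT with LINC00513 on chromosome 7 (60444 bp, 8.31) are non-coding, and the first 2 host microRNA genes. H3K36m3 covered 76.8%, 83.6% and 97.2% of these intervals. A stretch of 39806 bp on chromosome 11 (8.38) held 8 starts, among them that of the nuclear lncRNA MALAT1, and no protein-coding gene. Wide intervals away from a canonical TSS lay in ARHGAP18, a GTPase-activating protein gene (69377 bp, 6.22, 3829 bp from its TSS), and in DDX60L and PALLD (49606 bp, 7.89). Others lay in the kinase gene STK39 (45915 bp, 5.04) and at the 3′ part of the phosphodiesterase gene PDE4B (39578 bp, 8.91). Another annotated transcript start lay inside the DDX60L and PALLD, PDE4B and LINC-PINT intervals, and inside the PCDH7 interval of 56174 bp. The STK39 interval was the 1 of the 15 that did not pass the limits, with a −log10 q-value of 6.97. The start of the ephrin receptor gene EPHA2 (48229 bp, 7.68), the starts of TERF2 and CYB5B (43030 bp, 8.48), and those of DLGAP1-AS1 and DLGAP1-AS2 inside DLGAP1 (41945 bp, 10.4) lay in the other three. All 15 had 0 near-identical copies by the measure used above, and H3K4m1 covered at least 91.8% of each.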

How the data were processed

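PIXUL-ChIP-seq of HCT116 cells was analyzed from peak lists, 1 library and 1 list per mark. Per the labels and methods, the authors sequenced libraries with molecular identifiers, used BWA 0.7.12 for alignment on hg19, and took broad peaks at a cutoff of 0.1. The methods name MACS2, and the submitters' processing notes list MACS 1.4.2, SAMtools 0.1.19 and bcl2fastq 2.20.0.442. The single or paired layout differs between the sources. The fold enrichment that the authors deposited is a linear ratio per interval. The authors deposited a −log10 p-value and beside it a −log10 q-value, each for the whole interval. The lowest −log10 q-value in the H3K9Ac list was 1.01. No replicates were pooled. H3K27Ac was not analysed here. Sequencing depth is unknown and can change the number and width of intervals.

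The TSS was that of the canonical transcript of GENCODE 44 on hg19, or the 5′ end of the gene for 281 of 20162 protein-coding genes, and overlaps required 1 bp. Gene length and body ran from this TSS to the gene end. Shares carry 95% Wilson intervals. Sequences were read from the GRCh37 (hg19) genome. Copies were searched with minimap2 2.31. Python 3.11.15, numpy 2.4.6, pandas 2.3.3, scipy 1.17.1 and pyfaidx 0.9.0.4 were used. In 9 checks of overlap, distance and merging steps, on simulated intervals or on these lists against bedtools 2.31.1, 0 differed.

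The members, the 27 gene lists and the cell type markers were chosen with earlier results of these data known. Named were the 10 intervals with the highest fold enrichment, the 15 widest, the 10 highest distal ones, the 10 genes of at least 20 kb with the farthest downstream reach, the longest genes of at least 10 kb covered to 95% or more (up to 10), members of the lists and the loci assayed by qPCR. The genes with the most covered bases and the most distal intervals, and the motifs, were added after the values were seen. The alternatives were the limits of the methods, a fold limit multiplied by 1.5, merging over gaps, other TSS windows, protein-coding genes only, all transcript starts, all marked TSSs, longer genes and stricter overlaps with H3K4m1. A few members that the naming rule covers are not reported here.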

Additional observations from a re-analysis of the deposited data

How the results depend on the processing

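Of 41 alternative values, 15 stayed within the interval of the reported value or equal to it, and 26 moved. Whether any result reversed was not assessed. The 15 include the values from merging over gaps of at most 1000 bp, which could not change. Past the limits of the methods, the share of intervals near a TSS was 87.5%, and with the fold limit multiplied by 1.5 it was 91.6%. In the same order of settings, the share of protein-coding genes marked was 58.5% and 55.6%, and the share of TSS intervals reaching farther downstream 79.1% and 79.8%. The median body coverage was 5.24% and 5.22%, and the distal share on H3K4m1 98.5% and 99.0%. The share of distal intervals inside genes was 72.9% with the multiplied limit. With TSS windows of 0.5 and 2.5 kb, the share near a TSS was 39.5% and 45.2% and the share of genes marked 63.4% and 66.3%. With protein-coding genes only, the share near a TSS was 33.0% and the distal share inside genes 56.5%. With all transcript starts, these values were 49.3% near a TSS, 68.0% of genes, 81.0% farther downstream and 7.18% of the body. With all marked TSSs, 68.1% reached farther downstream. Genes of at least 20 kb had a median body coverage of 4.25%. The distal share on H3K4m1 was 79.9% when 50% of the interval had to be covered and 72.1% with H3K4m1 intervals past their limits. Merging over gaps of at most 1000 bp changed none of the 7 results, since no intervals lay closer than 1221 bp. With gaps of at most 5000 bp, the widest measured 259336 bp. No paired analysis was possible because there is only 1 library for H3K9Ac and no result comes from a test. Unknown depth limits how far the absence of an interval and its width can be read.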
